A study of Mus musculus with 6 samples.

Results

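The 6 genes described here serve lipid metabolism outside the sterol pathway. They are Ptgs1 (prostanoid synthesis), Mgll (monoglyceride breakdown), Mfsd2a and Pitpnc1 (phospholipid transport), Acot2 (acyl-CoA hydrolysis) and A4galt (glycolipid synthesis). They were chosen by their symbols from the 491 transcript clusters that the study's comparison table names, out of 23332 clusters measured, and all 6 were found, each with 1 cluster. That table holds clusters which the study called different between Bahd1-KO and Bahd1-WT MEFs with a local-pooled-error (LPE) test on these same arrays. The genes were therefore selected on the very values shown here, and their differences between genotypes are given as a description, without a test. In Bahd1-KO MEFs, 5 of the 6 were higher and Acot2 was lower. The difference in means was greatest for Mfsd2a, at 2.14-fold, and least for A4galt, at 1.36-fold.

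MEFs are primary fibroblasts grown from mouse embryos. Crosses of Bahd1 heterozygous mice of the C57BL/6 strain gave the embryos, which were collected at E13.5, freed of their heads and processed one by one. The Bahd1-KO group holds 3 embryos with total ablation of Bahd1, which encodes a chromatin repressor, and the Bahd1-WT group holds 3 wild-type embryos. RNA of each culture was hybridised to 1 Mouse Exon 1.0 ST array, and the authors deposited log2 values made by robust multichip average (RMA), in which 1 unit is a doubling of the signal.

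The median log2 value of an array lay between 5.01 and 5.06, and Pearson's r across clusters was 0.9838 to 0.9896 for all pairs of arrays. Bahd1 is not among the named clusters, which are those the study called, so its loss could not be checked on these arrays. The study's methods state that RT-qPCR verified the knockout in samples that included MEFs. The labels do not give the sex of the embryos. Y-linked transcripts (Kdm5d, Ddx3y and Eif2s3y, averaged) were at 7.03 to 7.19 on the arrays of Bahd1-KO MEFs 2, Bahd1-KO MEFs 3 and Bahd1-WT MEFs 2, and at most at 2.38 elsewhere. Of 13 fibroblast markers listed, the files name Lum and Pdgfra, and both were lower in Bahd1-KO MEFs, their mean level being 7.73 to 8.10 there and 8.35 to 8.85 in Bahd1-WT MEFs. Named markers of other cells were higher in Bahd1-KO MEFs. Only clusters that the study called different carry names, so all markers given here were selected on this contrast. The unnamed markers of each list could not be read. The epithelial pair Krt18 and Krt19, out of 6, ran from 8.63 to 8.68 on the Bahd1-KO and from 7.52 to 7.83 on the Bahd1-WT arrays. The smooth muscle pair Des and Cnn1, out of 5, ran from 9.06 to 9.30 and from 8.56 to 8.59. Single markers were named for endothelium (Emcn, 1 of 7, 5.62 to 6.14 against 4.56 to 4.93), for macrophages and blood (Csf1r, 1 of 7, 6.28 to 6.74 against 6.05 to 6.16) and for neural cells (Nes, 1 of 5, 8.25 to 8.45 against 7.45 to 8.08), and 0 of 8 adipocyte markers were named. Their part in the lipid gene differences was not tested, and in these cultures more cells of a type and more RNA per cell cannot be told apart.

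Lipids act as membrane building blocks, fuel and signals. Cyclooxygenases turn arachidonic acid into the precursor of prostaglandins, prostacyclin and thromboxane, and monoacylglycerol lipase can supply that arachidonic acid by splitting an endocannabinoid monoglyceride. Phospholipids are moved across membranes by transporters and between membranes by transfer proteins, acyl-CoA thioesterases release free fatty acids from coenzyme A, and glycosyltransferases add sugars to ceramide at the Golgi. For the genes whose arrays stood farthest apart, and for the lower gene Acot2, the promoter is printed with the member. RefSeq promoter windows of build GRCm38.p6, 250 bases before and 50 bases after a start site, matched all 6 genes, with 7 windows because Mgll has 2. They are written 5′ to 3′ along the gene, with capitals where a script found, on either strand, a GC box (GGGCGG, in 35.7% of 32851 promoters), a CCAAT box (CCAAT, 37.4%), a sterol regulatory element (TCACNCCAC, 1.24%), an E-box (CACGTG, 7.15%), a nuclear receptor core motif (AGGTCA, 16.3%) or a cyclic AMP response element (TGACGTCA, 1.79%). A direct repeat of the core motif with 1 base between was also sought and is present in 0.0396% of promoters. No matches overlapped in the windows of the 6 genes, and a match describes the letters and says nothing of binding.

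**Figure D1:**
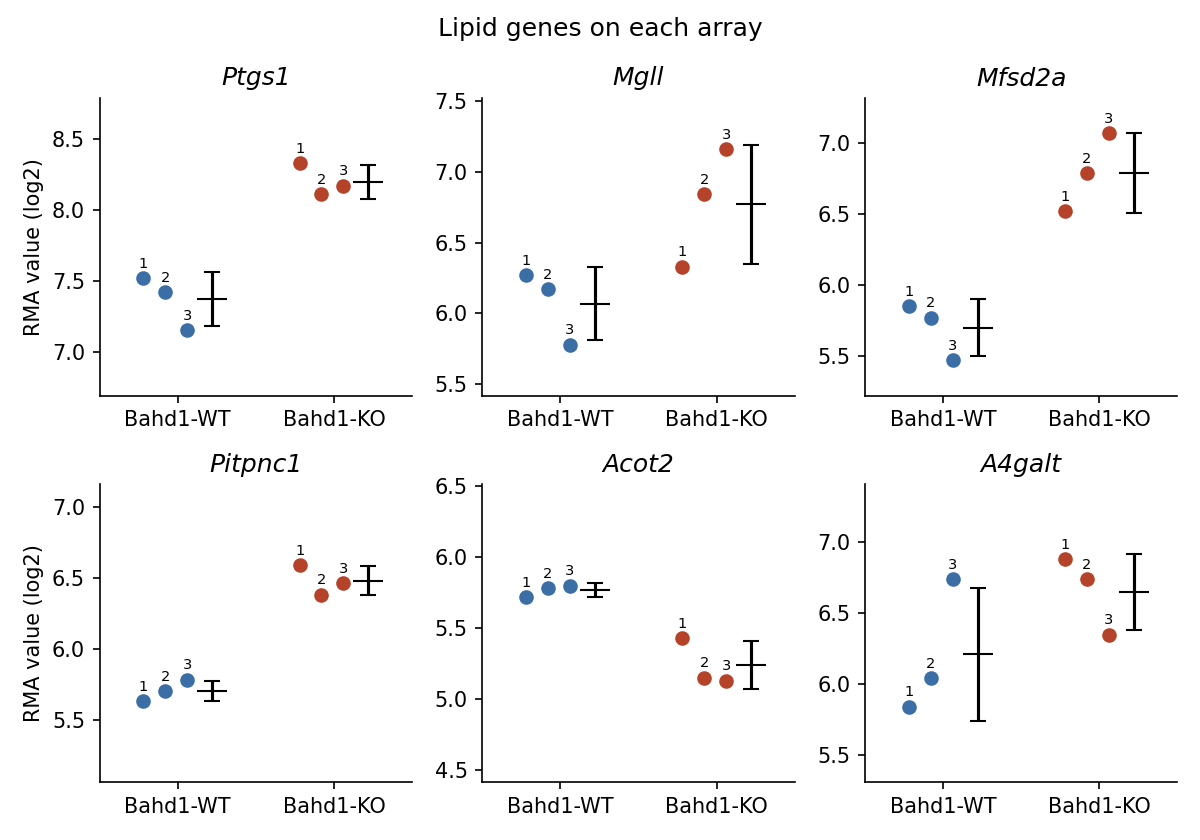
RMA log2 values of the 6 lipid genes on the 3 Bahd1-WT (blue) and 3 Bahd1-KO (red) arrays, numbered by replicate, with the mean and SD of each genotype as bars. Each panel spans the same range of log2 units around its own gene. The genotypes are apart in 5 genes, by 0.67 in Mfsd2a and by only 0.05 in Mgll, which overlaps after a repeated quantile normalization, and overlap in A4galt through Bahd1-WT MEFs 3 at 6.74.

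Ptgs1, on chromosome 2, encodes cyclooxygenase 1, the constitutive enzyme at the entry to prostanoid synthesis. Its log2 values were 8.33, 8.11 and 8.17 in Bahd1-KO MEFs 1 to 3 and 7.52, 7.42 and 7.15 in Bahd1-WT MEFs 1 to 3. All Bahd1-KO arrays lay above all Bahd1-WT arrays, with a gap of 0.58 between the nearest pair. The means were 8.20 ± 0.12 (SD, n = 3) and 7.37 ± 0.19 (SD, n = 3), a log2 difference of 0.84 (standard error 0.12) or 1.79-fold. The window of Ptgs1 (chr2:36230176-36230475, plus strand), shown as the first of the promoters of higher genes, held none of the motifs searched and was 50.7% G and C, against a median of 52.7% over all promoters:
Ptgs1 promoter: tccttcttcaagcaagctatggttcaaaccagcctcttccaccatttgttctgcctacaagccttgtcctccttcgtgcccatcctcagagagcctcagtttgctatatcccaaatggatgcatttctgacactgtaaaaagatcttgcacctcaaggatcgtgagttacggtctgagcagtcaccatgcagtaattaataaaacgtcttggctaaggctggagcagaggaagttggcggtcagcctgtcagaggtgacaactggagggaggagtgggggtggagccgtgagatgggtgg

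Other genes of prostanoid synthesis and signalling were looked up from a list of 29, of which the files name 5, including Ptgs1. Ptgs2, which encodes the inducible cyclooxygenase, had log2 values of 10.86, 11.01 and 11.04 in Bahd1-KO and 10.60, 10.58 and 10.14 in Bahd1-WT MEFs. Its arrays were apart by 0.26 and its means differed by 0.53 (standard error 0.14), or 1.45-fold. Ptgis, which encodes prostacyclin synthase, was at 8.51, 8.33 and 8.39 in Bahd1-KO and at 7.80, 8.00 and 7.65 in Bahd1-WT MEFs, a difference of 0.59 (standard error 0.11) without overlap. Slco2a1, which encodes the transporter that takes prostaglandins into cells, was at 9.01, 9.00 and 8.82 in Bahd1-KO and at 8.17, 8.33 and 7.85 in Bahd1-WT MEFs. Its difference of 0.82 (standard error 0.14) or 1.77-fold was close in size to that of Ptgs1. Both cyclooxygenases, a downstream synthase and an uptake carrier were higher, but all were named through the study's calls on this contrast. Most named clusters were higher (354 of 491), so no joint change is read from these genes. Cbr1, a carbonyl reductase that can convert prostaglandins among many other substrates, differed in direction. It was at 7.18, 7.36 and 7.18 in Bahd1-KO and at 7.32, 7.60 and 7.68 in Bahd1-WT MEFs, a difference of -0.29 (standard error 0.12), and its arrays overlapped by 0.04. The other 24 genes of the list, prostaglandin receptors among them, are not named in the files and were not analysed here.

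Mgll, on chromosome 6, encodes monoacylglycerol lipase, which splits monoglycerides into glycerol and a fatty acid. Its log2 values were 6.33, 6.84 and 7.16 in Bahd1-KO MEFs 1 to 3 and 6.27, 6.17 and 5.78 in Bahd1-WT MEFs 1 to 3. The genotypes did not overlap, but Bahd1-KO MEFs 1 lay only 0.05 above Bahd1-WT MEFs 1, and after a repeated quantile normalization it lay 0.05 below. The means were 6.77 ± 0.42 (SD, n = 3) and 6.07 ± 0.26 (SD, n = 3), a difference of 0.70 (standard error 0.24) or 1.62-fold. The Bahd1-KO SD of Mgll was the widest among the 6 genes in that genotype, and the difference ran from 0.51 without Bahd1-KO MEFs 3 to 0.92 without Bahd1-KO MEFs 1. The low Bahd1-KO array is also the one with a low Y-linked level, and with that level as a covariate the difference was 0.57 (standard error 0.22). Among the Bahd1-WT arrays, Bahd1-WT MEFs 2, with the high Y-linked level, lay between Bahd1-WT MEFs 1 and 3. With the covariate the difference was 0.85 for Ptgs1, 1.02 for Mfsd2a, 0.80 for Pitpnc1, -0.49 for Acot2 and 0.54 for A4galt. A part of embryo sex in the Mgll difference was not tested. The 2 promoter windows of Mgll, with 70.0% and 72.3% G and C, held 1 GC box each, and the first also held an E-box 44 bases before the start. Mgll is the only one of 44 listed genes of glyceride and endocannabinoid turnover that the files name.

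Mfsd2a, on chromosome 4, encodes a transporter that carries lysophospholipids, including those with docosahexaenoic acid, into cells and is best known at the blood-brain barrier. Its log2 values were 6.52, 6.79 and 7.07 in Bahd1-KO MEFs 1 to 3 and 5.85, 5.77 and 5.47 in Bahd1-WT MEFs 1 to 3. The gap of 0.67 between the genotypes was the widest of the 6 genes. The means were 6.79 ± 0.28 (SD, n = 3) and 5.70 ± 0.20 (SD, n = 3), a difference of 1.10 (standard error 0.17) or 2.14-fold. That difference was larger in size than in 96.5% of the named clusters and 99.4% of all clusters. The window of Mfsd2a (chr4:122961139-122961438, minus strand), shown because the difference was the greatest here, held a CCAAT box 54 bases and a nuclear receptor core motif 213 bases before the start:
Mfsd2a promoter: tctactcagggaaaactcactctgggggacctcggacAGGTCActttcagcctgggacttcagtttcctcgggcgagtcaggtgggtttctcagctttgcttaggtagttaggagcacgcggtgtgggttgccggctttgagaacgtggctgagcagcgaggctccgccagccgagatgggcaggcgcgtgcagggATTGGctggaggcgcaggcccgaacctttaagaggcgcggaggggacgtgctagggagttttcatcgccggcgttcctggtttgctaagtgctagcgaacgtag

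Pitpnc1, on chromosome 11, encodes a phosphatidylinositol transfer protein that also carries phosphatidic acid. Its log2 values were 6.59, 6.38 and 6.46 in Bahd1-KO MEFs 1 to 3 and 5.63, 5.70 and 5.78 in Bahd1-WT MEFs 1 to 3. The genotypes were apart by 0.61, which was more than the range within either. The means were 6.48 ± 0.10 (SD, n = 3) and 5.70 ± 0.07 (SD, n = 3), a difference of 0.78 (standard error 0.09) or 1.71-fold. The standard error was the smallest among the 6 genes. The cluster has 425 probes, the most of the 6, but the standard error did not follow probe number. It was 0.24 for Mgll with 152 probes and 0.10 for Acot2 with 27. The window of Pitpnc1 (chr11:107470671-107470970, minus strand), printed as the remaining gene with a wide gap, held a CCAAT box 120 bases before the start:
Pitpnc1 promoter: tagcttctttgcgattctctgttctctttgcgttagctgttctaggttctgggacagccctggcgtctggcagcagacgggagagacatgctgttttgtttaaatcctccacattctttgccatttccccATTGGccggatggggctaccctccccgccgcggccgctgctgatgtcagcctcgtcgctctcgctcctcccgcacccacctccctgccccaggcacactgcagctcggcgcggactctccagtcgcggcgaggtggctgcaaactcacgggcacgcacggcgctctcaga

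Of 49 listed genes of phospholipid and lipid transfer, the files name Mfsd2a, Pitpnc1 and Pctp. Pctp, which encodes the phosphatidylcholine transfer protein, was at 6.24, 6.06 and 5.77 in Bahd1-KO and at 5.90, 5.57 and 5.35 in Bahd1-WT MEFs. Its arrays overlapped, since Bahd1-WT MEFs 1 lay above Bahd1-KO MEFs 3, and its difference was 0.41 (standard error 0.19).

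Acot2, on chromosome 12, encodes a mitochondrial acyl-CoA thioesterase, which frees fatty acids from their coenzyme A esters, and was the gene of the 6 that was lower in Bahd1-KO MEFs. Its log2 values were 5.43, 5.15 and 5.13 in Bahd1-KO MEFs 1 to 3 and 5.72, 5.78 and 5.80 in Bahd1-WT MEFs 1 to 3. All Bahd1-KO arrays lay below all Bahd1-WT arrays, by at least 0.28. The means were 5.24 ± 0.17 (SD, n = 3) and 5.77 ± 0.05 (SD, n = 3), a difference of -0.53 (standard error 0.10), or a level 1.45-fold higher in Bahd1-WT MEFs. The cluster has 27 probes, the fewest of the 6, and 54.7% of all clusters were dimmer, so that its signal lay near the middle of the array. In RefSeq the next protein-coding gene is Acot1, a close copy of Acot2, followed by Acot4 and Acot3. How far the probes of the Acot2 cluster tell these copies apart is not given in the sources used here. The window of Acot2 (chr12:83987611-83987910, plus strand), shown for contrast with the higher genes, held a CCAAT box 244 bases before the start:
Acot2 promoter: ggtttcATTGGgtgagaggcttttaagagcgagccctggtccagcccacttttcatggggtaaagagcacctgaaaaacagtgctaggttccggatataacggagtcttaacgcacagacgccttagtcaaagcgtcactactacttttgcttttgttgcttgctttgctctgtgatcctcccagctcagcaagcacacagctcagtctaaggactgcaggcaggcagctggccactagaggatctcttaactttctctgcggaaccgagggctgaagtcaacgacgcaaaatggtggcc

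Acot2 is the only one of 42 listed genes of acyl-CoA metabolism and fatty acid oxidation that the files name. The other 41, the thioesterase copies and the carnitine palmitoyltransferases among them, were not analysed here.

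A4galt, on chromosome 15, encodes the galactosyltransferase that makes globotriaosylceramide, the first lipid of the globo series, from lactosylceramide. Its log2 values were 6.88, 6.74 and 6.35 in Bahd1-KO MEFs 1 to 3 and 5.84, 6.04 and 6.74 in Bahd1-WT MEFs 1 to 3. The genotypes overlapped, because Bahd1-WT MEFs 3 lay among the Bahd1-KO arrays. The means were 6.65 ± 0.27 (SD, n = 3) and 6.21 ± 0.47 (SD, n = 3), a difference of 0.44 (standard error 0.27) or 1.36-fold, within the spread between embryos. Without Bahd1-WT MEFs 3 the difference was 0.71 (standard error 0.18), without Bahd1-WT MEFs 1 it was 0.26 (standard error 0.27), and between group medians it was 0.69. The promoter window of A4galt held 4 GC boxes, 3 of them before the start.

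Of 50 listed genes of glycosphingolipid and ceramide metabolism, the files name B4galt5 and Asah2 besides A4galt. B4galt5 encodes a synthase of lactosylceramide, the substrate of A4galt. It was at 9.17, 9.02 and 9.12 in Bahd1-KO and at 8.77, 8.62 and 8.48 in Bahd1-WT MEFs, apart by 0.26, with a difference of 0.48 (standard error 0.10) or 1.40-fold. Unlike A4galt, its value in Bahd1-WT MEFs 3 was the lowest of all arrays. Asah2, which encodes a neutral ceramidase, was at 7.70, 7.65 and 7.41 in Bahd1-KO and at 7.23, 7.42 and 7.22 in Bahd1-WT MEFs, a difference of 0.29 (standard error 0.11) with arrays that overlapped by 0.02.

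Fatty acid uptake and binding has no member among the 6, and of 21 listed genes the files name Cav1 and Olr1. Olr1, a scavenger receptor for oxidised lipoprotein, was at 9.24, 9.08 and 8.92 in Bahd1-KO and at 8.11, 7.90 and 7.32 in Bahd1-WT MEFs. Its difference of 1.30 (standard error 0.22) or 2.46-fold exceeded that of Mfsd2a. Cav1, which encodes the caveolar coat protein caveolin 1, was at 10.92, 10.85 and 10.74 in Bahd1-KO and at 10.54, 10.67 and 10.40 in Bahd1-WT MEFs, a difference of 0.30 (standard error 0.10) with a gap of 0.07.

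**Figure D2:**
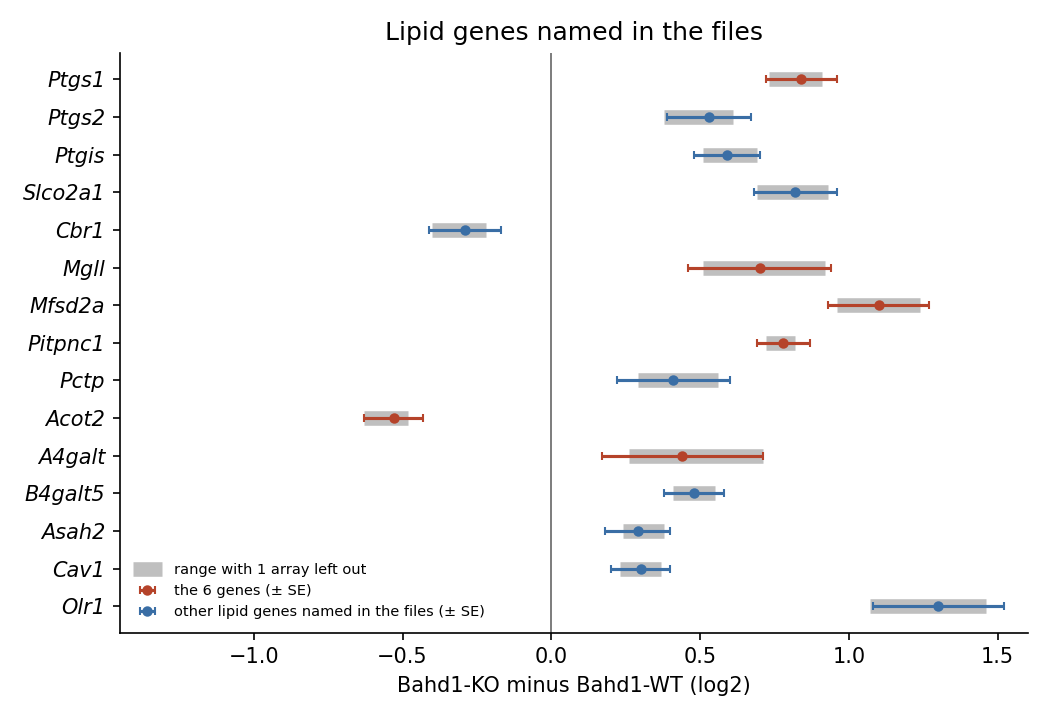
Log2 difference (Bahd1-KO minus Bahd1-WT) with its standard error for the 15 lipid genes named in the files, the 6 genes in red and 9 others in blue. Grey bars give the range of the difference when 1 array at a time was left out. The genes were named through the same contrast, so bars that stay off 0 are no sign of stability. A4galt has the widest bar relative to its difference, from 0.26 to 0.71.

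Counted over the 6 lists, 15 of 235 lipid genes are named in the files, and 13 of these were higher and 2 (Acot2 and Cbr1) lower in Bahd1-KO MEFs. The median difference was 0.74 for the 6 genes and 0.48 for the 9 others, against 0.43 for all named and 0.017 for all measured clusters. The named clusters are those the study called, 354 of them higher and 137 lower here, so that the direction of most lipid genes is that of most named clusters. Among the 6 genes, 4 had every Bahd1-KO array above every Bahd1-WT array and 1 had every Bahd1-KO array below. These 5 became 4 after a repeated quantile normalization, under which Mgll overlapped, and 6 without Bahd1-WT MEFs 3, since A4galt was then apart. Over all clusters, 11.4% were apart in the first way and 6.64% in the second, and over the named clusters 77.0% were apart in either way. The fit of all 23332 clusters with limma called 0%, that is 0 clusters, at an adjusted p under 0.05, while 2425 clusters had an unadjusted p under 0.05, so 0 of the 6 genes passed. Among the clusters above the median brightness, which hold all 6 genes, limma called 36, with Pitpnc1 as the 1 called gene of the 6. Nothing is read from these counts, since the choice of the genes used the same contrast.

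**Figure D3:**
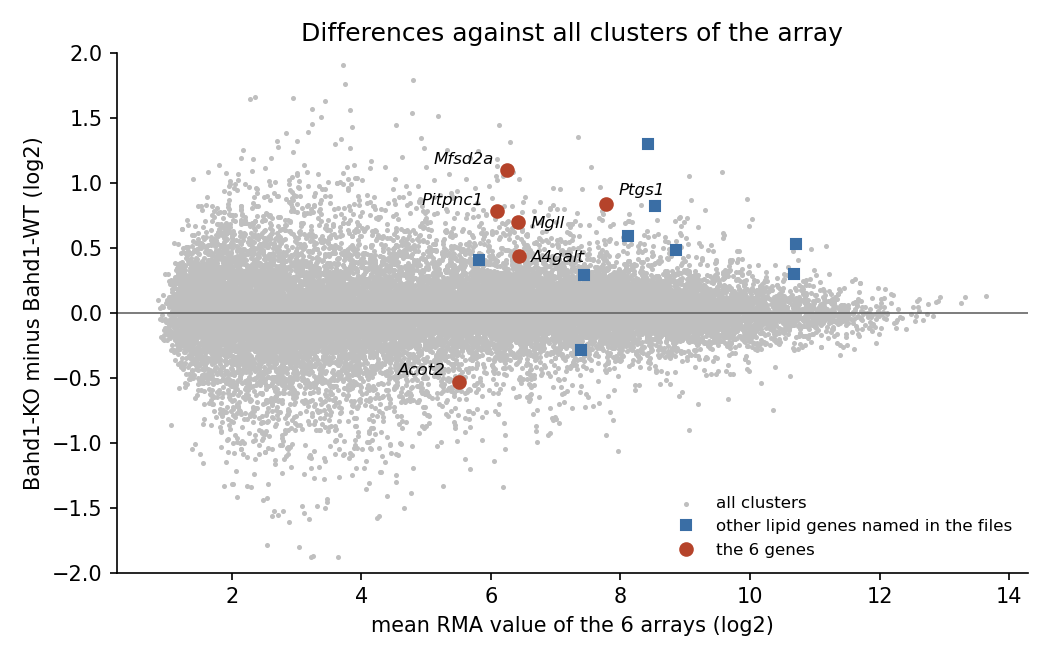
Log2 difference (Bahd1-KO minus Bahd1-WT) against the mean log2 value of the 6 arrays for all 23332 clusters (grey), with the 6 genes (red) and 9 other lipid genes named in the files (blue). The vertical axis stops at 2 in each direction and leaves out 5 clusters. Brightness depends on the probes of a cluster and is no measure of one gene's RNA against another's. Mfsd2a at 1.10 and Ptgs1 at 0.84 differed more in size than 99.4% and 98.2% of all clusters, and Acot2 lies below 0 at -0.53. The 6 genes were selected on this contrast.

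The 6 genes did not vary alike between embryos of one genotype. Bahd1-WT MEFs 3 was the lowest Bahd1-WT array for Ptgs1, Mgll and Mfsd2a, by 0.21, 0.29 and 0.22 below the genotype mean, and the highest for Pitpnc1, Acot2 and A4galt. Over all clusters this array had the largest root mean square deviation from its genotype mean, 0.272, against 0.232 to 0.245 for the others. Bahd1-KO MEFs 3 was the highest Bahd1-KO array for Mgll and Mfsd2a and the lowest for Acot2 and A4galt. Mgll and Mfsd2a ranked the 6 arrays in the same order, from Bahd1-KO MEFs 3, 2 and 1 down to Bahd1-WT MEFs 1, 2 and 3. With them, 51 of the 491 named clusters had that order, so it was not particular to these lipid genes.

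**Figure D4:**
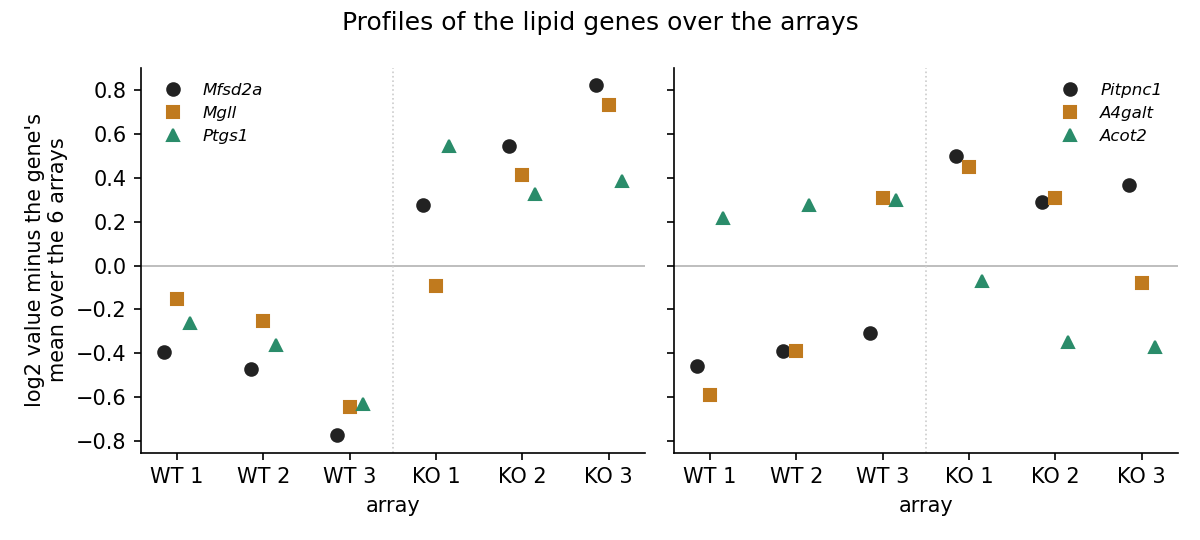
Log2 value of each of the 6 genes on each array, minus the mean of that gene over the 6 arrays, with Bahd1-WT arrays left and Bahd1-KO arrays right of the dotted line. Mfsd2a, Mgll and Ptgs1 (left panel) share their lowest value in Bahd1-WT MEFs 3. A4galt (right panel) has its highest Bahd1-WT value on that array, 0.53 above its Bahd1-WT mean, which is not drawn.

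For each gene, the closest profile among the other 490 named clusters was sought by the root mean square difference over the 6 arrays, each cluster being centred on its own mean. The nearest to Ptgs1 was the keratin gene Krt19, at 0.027 log2 units, then Bcl2, an inhibitor of apoptosis, at 0.076. Mfsd2a was nearest to Krt18, the keratin gene, at 0.084 and to the Myc family gene Mycl1 at 0.106. For Mgll the nearest were the lectin gene Siglecg at 0.070 and Ch25h, which encodes a hydroxylase of cholesterol, at 0.106. Pitpnc1 was nearest to Aif1l at 0.056 and to the calcium sensor gene Hpcal1 at 0.072. Acot2 was nearest to Tmem45a and the homeobox gene Hoxa4, both at 0.039. The nearest profile to A4galt was less close than for the other 5 genes, with the integrin gene Itga8 at 0.124 and the G protein gene Gng13 at 0.126. Among themselves, Ptgs1 and Pitpnc1 were the closest pair at 0.155, and Mgll and Mfsd2a lay 0.220 apart. The distance rests on 6 arrays and includes the difference between genotypes, on which all named clusters were selected.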

How the data were processed

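Primary MEFs of 3 Bahd1-KO and 3 Bahd1-WT embryos were measured on Mouse Exon 1.0 ST arrays. The authors corrected the background, normalized between arrays and summarised probes to gene core clusters with RMA (version not stated), and the deposited values are in log2 units. Their comparison table repeats these log2 values for 491 clusters with symbols, positions and probe numbers. Its columns of SDs, fold changes, z-scores and LPE p-values were not used, and no genome build is named for its positions, so none are printed.

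Differences (Bahd1-KO minus Bahd1-WT) and standard errors came from limma version 3.58.1 in R 4.3.3 (lmFit, eBayes) on all 23332 clusters, without a filter, adjusted by Benjamini-Hochberg, and the step was tested on simulated data. The number of arrays limits the precision. Standard errors combine a gene's spread between cultures of single embryos with a spread pooled over all clusters by eBayes. They can thus be smaller or larger than the gene's own spread gives. The RNA was prepared with TRIzol per the labels and with RNeasy kits per the methods. The members, gene lists, markers and motifs were chosen with earlier results of these data known. Named are the 6 genes, the listed genes that the files name, matched through RefSeq accessions and synonyms, and the 2 closest profiles of each gene. Alternatives were another prior, a brightness filter, 2 other normalizations, group medians, array weights, a replicate block, a Y-linked covariate and each array left out.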

Additional observations from a re-analysis of the deposited data

How the results depend on the processing

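Each difference of the 6 genes kept its direction and moved by less than the SD between replicates under 12 alternatives, 72 values in all. These were a repeated quantile normalization, centring of arrays on their medians, group medians, array weights, the replicate block, the Y-linked covariate and each of the 6 arrays left out. With 3 arrays per genotype, leaving 1 out cannot shift a difference by more than that SD, and the replicate block cannot shift it at all. Centring shifts the differences of all genes by the same amount, which is small because the array medians lay between 5.01 and 5.06. For these alternatives a small shift was fixed in advance and says nothing of stability. The count of 5 genes with arrays apart was 4 after the repeated quantile normalization (without Mgll), 6 without Bahd1-WT MEFs 3 (with A4galt) and 5 with centred arrays or any other array left out. With 1 array left out, the difference ran from 0.73 to 0.91 for Ptgs1, from 0.96 to 1.24 for Mfsd2a, from 0.72 to 0.82 for Pitpnc1 and from -0.63 to -0.48 for Acot2. The count of 0 clusters called by limma over all clusters became 36 (29 higher and 7 lower) when only clusters above the median brightness were tested, which are fewer tests on brighter signals. Of the 6 genes, Pitpnc1 was among the 36. The count of clusters called was 0 with a trended and robust prior, both normalizations, array weights, the replicate block and each array left out. The count with the Y-linked covariate is not reported here. The values gave no sign that the replicate numbers pair the embryos. Deviations of same-numbered arrays correlated by -0.001, 0.027 and 0 across clusters, and not every array correlated best with its own number. These correlations cannot show whether same-numbered embryos shared a litter or a processing day. With all numbers present in both genotypes, the replicate block cannot change a difference and alters only its standard error, which became 0.11 for Ptgs1 (0.84) and 0.32 for A4galt (0.44). Clusters without a name in the files could not be assigned to lipid genes, so a lipid gene that is not described here may have differed or not.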
